A study of Homo sapiens with 8 samples.

Results

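The ZNF genes on chromosome 19 were described in RNA sequencing data of 2 human fibroblast lines. ZNF is the symbol stem for zinc finger proteins. The members are the genes whose symbol is ZNF followed by digits and at most 1 letter, whose locus lies on chromosome 19, whose deposited status was OK in all 8 samples and whose mean level over the 8 samples was at least 1 FPKM. FPKM is the number of fragments mapped to a gene, normalised to transcript length and to the size of the library. Of 252 such symbols on chromosome 19, 169 met the level limit, 83 lay under it, and 0 had a status other than OK. Of the members, 19 have loci that overlap another row of the tables, among them ZNF146 with ZNF565, ZNF428 with SRRM5 and ZNF224 with LOC100379224, and 2, ZNF542P and ZNF818P, are named as pseudogenes. Among all 11435 genes tested in the series, the members stood beside 198 ZNF genes of other chromosomes and 629 other genes of chromosome 19. The members were chosen by symbol, locus, status and the measured mean FPKM over all samples, so their levels are a description. The rule does not use the difference between the siRNAs, but the group was chosen with earlier results of these data known.

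Each line was transfected, by Lipofectamine RNAiMax, either with SUPT4H1 siRNA or with non-targeting siRNA as the control, and each siRNA had 2 samples per line. That gives 4 control samples (2 of line 1, 2 of line 2) and 4 SUPT4H1 siRNA samples (2 of line 1, 2 of line 2). The labels call both lines population controls, and nothing else differs between the groups per the labels. With 2 lines, nothing is tested about fibroblasts in general, and since the labels do not say whether replicates were separate cultures, the p-values reflect how far these samples scatter, and part of that scatter may be technical. SUPT4H1 encodes SPT4, a subunit of DSIF, which travels with RNA polymerase II.

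Most C2H2 zinc finger proteins bind DNA through an array of fingers, each of which folds around a zinc ion and reads a few bases. Many of those encoded on chromosome 19 carry a KRAB domain, which recruits the corepressor TRIM28 and through it the histone methyltransferase SETDB1 to silence the bound DNA, often a transposable element. Their genes arose by tandem duplication and lie in clusters, and their mRNAs are known to be scarce in most cell types.

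In line 1, the SUPT4H1 mRNA was at 25.6 and 25.6 FPKM with control siRNA and at 1.37 and 1.43 FPKM with SUPT4H1 siRNA, and in line 2 at 26.2 and 28.3 and then 1.69 and 1.74 FPKM. The residual level was 5.46% of control in line 1 and 6.3% in line 2. The FPKM of a sample summed to between 287909 and 305149, and the number of fragments is not given in the sources used here. All 10 fibroblast markers with status OK were at or above 1 FPKM in every sample, with sums of 12490 to 13160 FPKM in controls and 11220 to 13160 FPKM after SUPT4H1 siRNA, while COL1A1, COL1A2 and FN1 did not have status OK in every sample. DCN, VIM and COL3A1 make up most of these sums. Of the 10 fibroblast markers, 5 fell after SUPT4H1 siRNA (COL3A1, COL5A1, PDGFRA, PDGFRB and FAP, with log2 changes from -0.12 to -0.44) and S100A4 rose (0.24). Of all genes tested, 15.2% fell and 26.8% rose. The part of the marker changes in the results below was not tested. The endothelial and melanocyte lists and the list of other epithelium were under 1 FPKM in every sample. Of the keratinocyte, blood and neural lists, KRT10, CD14 and TUBB3 alone were at or above 1 FPKM in every sample. Of the muscle list, DES was at 0.871 FPKM in controls and 0.266 FPKM after SUPT4H1 siRNA on average. MYOD1, MYOG, SOX10, S100B, KRT5, KRT1 and CD3E were listed at 0 throughout.

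Promoters are shown here for 4 members that changed after SUPT4H1 siRNA, the largest fall, 2 other falls and the largest rise, because these are changed members whose calls held with any 1 sample left out; they were not chosen for their motifs. The sequences run from 250 bases before to 50 bases after the gene's start in RefSeq (GRCh38.p14), 5′ to 3′ on the gene's strand. Capitals mark matches on either strand to the 4 motifs searched, the TATA box TATAAA, the CCAAT box CCAAT, the GC box GGGCGG and the ETS core CCGGAAG, none of which contains another. ZNF558 lies on the minus strand at chr19:8832255-8832554, ZNF614 on the minus strand at chr19:52028330-52028629, ZNF175 on the plus strand at chr19:51571033-51571332 and ZNF274 on the plus strand at chr19:58182811-58183110.
ZNF558: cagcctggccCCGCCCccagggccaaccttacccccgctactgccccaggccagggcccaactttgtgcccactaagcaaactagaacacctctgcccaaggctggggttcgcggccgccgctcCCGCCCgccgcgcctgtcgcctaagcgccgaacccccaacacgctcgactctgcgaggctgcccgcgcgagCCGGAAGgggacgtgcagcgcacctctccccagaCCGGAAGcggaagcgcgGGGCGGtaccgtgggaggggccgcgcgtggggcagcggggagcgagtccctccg
ZNF614: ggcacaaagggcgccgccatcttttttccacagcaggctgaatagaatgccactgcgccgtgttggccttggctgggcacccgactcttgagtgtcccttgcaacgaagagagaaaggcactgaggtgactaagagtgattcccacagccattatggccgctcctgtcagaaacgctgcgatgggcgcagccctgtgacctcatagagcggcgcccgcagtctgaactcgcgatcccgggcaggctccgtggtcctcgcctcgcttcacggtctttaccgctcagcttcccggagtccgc
ZNF175: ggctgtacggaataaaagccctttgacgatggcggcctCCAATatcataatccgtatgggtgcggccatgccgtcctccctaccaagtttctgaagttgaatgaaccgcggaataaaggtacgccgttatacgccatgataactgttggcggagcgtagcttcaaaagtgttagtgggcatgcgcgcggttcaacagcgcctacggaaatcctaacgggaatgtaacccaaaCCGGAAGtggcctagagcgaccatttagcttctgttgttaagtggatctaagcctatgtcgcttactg
ZNF274: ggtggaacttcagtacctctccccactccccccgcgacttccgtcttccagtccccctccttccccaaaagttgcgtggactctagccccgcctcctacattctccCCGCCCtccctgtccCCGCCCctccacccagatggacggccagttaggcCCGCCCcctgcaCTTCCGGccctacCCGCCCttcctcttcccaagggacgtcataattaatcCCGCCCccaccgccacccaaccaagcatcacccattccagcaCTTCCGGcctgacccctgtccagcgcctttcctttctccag
ZNF558 and ZNF274 hold the GC box and the ETS core, ZNF175 holds the CCAAT box and the ETS core, and in ZNF614 none of these letters was found in the window, so the 4 have no motif in common.

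RefSeq promoters matched 150 of the 169 members by symbol. The ETS core was found in 70 of these 150 promoters (46.7%), against 20.4% of 8661 matched promoters of all genes tested, 37.6% of 165 promoters of ZNF genes of other chromosomes, and 10.7% of all 27305 promoters of the table. CCAAT was found in 48% of the members and 36.4% of all genes tested, and GGGCGG in 64% and 71.1%. TATAAA was found in 4 of the 150 (2.67%), against 5.02% of all genes tested. The median GC content was 60% in the members and 65.7% in all genes tested. Among the 17 changed members with a promoter, the ETS core was in 5 of 12 that fell and 1 of 5 that rose, beside 64 of 133 that were not called. These matches are descriptions of letters, not binding sites.

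The members were low in abundance. Their mean FPKM ran from 1.02 to 49.6 with a median of 2.07, against a median of 8.03 over all genes tested, and 82 of the 169 were under 2 FPKM while 8 reached 10. ZNF358 was the most abundant, with controls at 51.3 and 53.7 FPKM for line 1 and at 46.1 and 49.3 FPKM for line 2. ZNF580 followed with a mean of 25.6 FPKM and ZNF428 with 18.7 FPKM. At the limit, ZNF30, ZNF382 and ZNF285 were just inside with 1.02, 1.03 and 1.04 FPKM, and ZNF653, ZNF101 and ZNF546 just outside with 0.989, 0.985 and 0.967 FPKM. ZNF93, a known repressor of young retrotransposons, was outside with a mean of 0.651 FPKM. ZNF91, which represses retrotransposons of the SVA class, was inside with 2.07 FPKM, and its 4 control samples lay between 2.04 and 2.29 FPKM. Together the members held 0.176 to 0.2% of the FPKM sum of a sample. The authors' interval around a member's value had a median half-width of 11.8% of the value, with 3.8% for the most precise member and 29.4% for the least.

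After SUPT4H1 siRNA, 7 members rose and 12 fell, and 150 did not pass the test (limma with the line as block, Benjamini-Hochberg adjusted p under 0.05 over all 11435 genes tested). The share called was 11.2%, beside a background of 42.0% of all genes tested. By direction, 4.14% of the members rose, beside 26.8% of all genes, and 7.1% fell, beside 15.2%. The median change of the members was -0.016 on the log2(FPKM + 1) scale, with 71 above 0 and 98 below, against a median of 0.031 over all genes, of which 59.8% were above 0. Without adjustment, 27 members had a p under 0.05 (16%, beside 50.7% of all genes). Leaving out 1 sample in turn gave 4 to 7 rises and 5 to 10 falls. The share of members called was 5.33 to 9.47% in these fits, beside 34.6 to 39.9% of all genes. The fewest of both, 4 and 5, came without control replicate 2 of line 2. Falls numbered 6 without control replicate 1 of line 2. They numbered 7 without control replicate 1 of line 1, SUPT4H1 siRNA replicate 1 of line 1 or SUPT4H1 siRNA replicate 2 of line 2, the last with 4 rises. The ZNF genes of other chromosomes gave 16 rises and 22 falls of 198 (19.2% called, median -0.002). The other genes of chromosome 19 gave 184 rises and 96 falls of 629 (44.5% called, median 0.038), and the 82 of them that lie inside the ZNF clusters gave 20 rises and 11 falls (37.8% called). No test of these differences between gene groups was made. In bulk samples, fewer cells of a type and less RNA per cell cannot be told apart.

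The members' low level went with fewer calls, so calls were also counted by level. From 1 to 2 FPKM, 4 of 82 members were called (4.88%), against 28% of all 1338 genes of that level. From 2 to 5 FPKM it was 9 of 68 (13.2%) against 31.4%, from 5 to 10 FPKM 3 of 11 (27.3%) against 39.5%, and at 10 FPKM or more 3 of 8 (37.5%) against 53%. The standard error did not run higher in the members at the low end, with a median of 0.049 from 1 to 2 FPKM against 0.056 for all genes there, and 0.043 against 0.045 from 2 to 5 FPKM. The size of the change was smaller, with a median absolute log2 change of 0.05 against 0.094 from 1 to 2 FPKM and 0.05 against 0.082 from 2 to 5 FPKM. The ZNF genes of other chromosomes had median absolute changes close to those of the members under 5 FPKM. Their share called was not close from 1 to 2 FPKM, with 13% against 4.88%, and no test was made. Of them, 13% were called from 1 to 2 FPKM, 11.2% from 2 to 5, 36.6% from 5 to 10 and 30.4% at 10 FPKM or more, above the members in the first and the third range and below them in the other two, and their median absolute change was 0.058 from 1 to 2 FPKM and 0.055 from 2 to 5 FPKM.

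**Figure D1:**
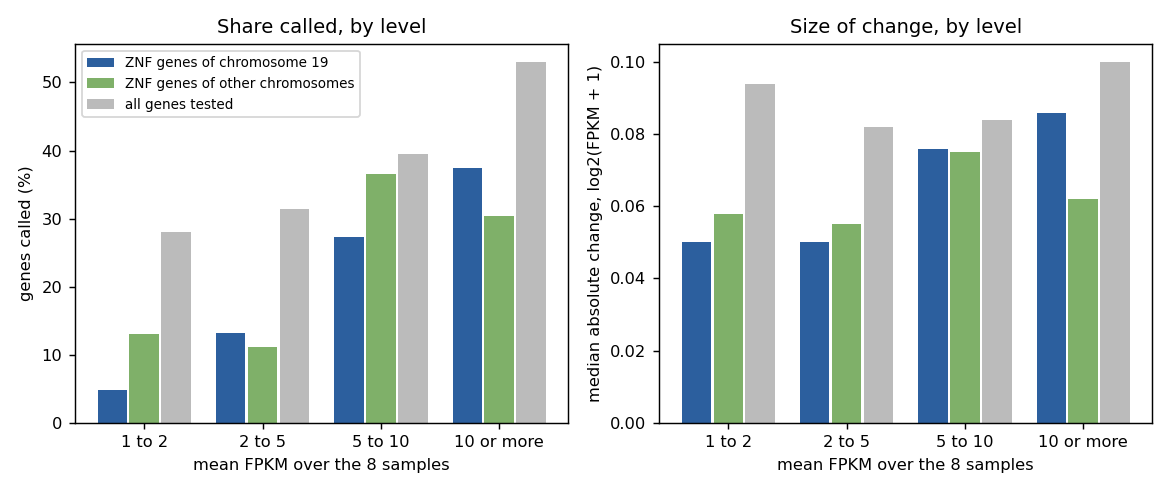
Left, the percent of genes called after SUPT4H1 siRNA; right, the median absolute change on the log2(FPKM + 1) scale; both by mean FPKM, for ZNF genes of chromosome 19 (blue), ZNF genes of other chromosomes (green) and all genes tested (grey). Both quantities were lower in the chromosome 19 genes than in all genes at each level, for example 4.88% against 28% called from 1 to 2 FPKM.

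A member that did not pass is not shown to be unchanged, but its interval limits the size. For 146 of the 150 members not called, the 95% interval of the change lay within ±0.25 on the log2(FPKM + 1) scale, and for all 150 it lay within ±0.5. This scale understates changes of low genes. With a pseudocount of 0.1 in place of 1, the interval lay within ±0.5 for 148 of the 150.

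ZNF558 had the largest change of all members. It encodes a KRAB zinc finger protein reported to repress a mitophagy gene, and lies at chr19:8920382-8933565 in hg19. In line 1 the controls were at 6.09 and 6.32 FPKM and the SUPT4H1 siRNA samples at 4.78 and 4.78 FPKM. In line 2 the controls were at 5.26 and 5.24 FPKM and the SUPT4H1 siRNA samples at 3.59 and 3.74 FPKM. All 4 SUPT4H1 siRNA samples lay below all 4 control samples. The level fell to 77% of control in line 1 and 69.9% in line 2. The log2 change was -0.37 (SE 0.033, limma adjusted p = 5.76e-05), and -0.438 with a pseudocount of 0.1. Log2 changes and differences of single genes are given throughout on the log2(FPKM + 1) scale unless another pseudocount is named. They are smaller than the percents of control imply.

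Among the other falls, ZNF614 (chr19:52516577-52531680) was at 2.23, 2.42, 2.01 and 1.90 FPKM in the controls, line 1 first, and at 2.02, 1.83, 1.33 and 1.63 after SUPT4H1 siRNA. The groups overlapped across lines but not within a line, and the log2 change was -0.22 (SE 0.052, limma adjusted p = 0.00838). ZNF667, a KRAB zinc finger gene at chr19:56950693-56988770, was at 2.06 and 2.11 FPKM in controls of line 1 and 2.56 and 2.70 in line 2, against 1.57, 1.92, 2.14 and 2.03 FPKM. Again the samples separated within each line, with a log2 change of -0.20 (limma adjusted p = 0.00867). ZNF175, known as a repressor of retroviral transcription in macrophages (chr19:52074531-52092991), was at 2.89, 3.03, 2.58 and 2.47 FPKM in controls and 2.41, 2.23, 2.25 and 2.25 after SUPT4H1 siRNA. Its SUPT4H1 siRNA samples lay below all controls, with a log2 change of -0.19 (limma adjusted p = 0.00745).

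The remaining 8 falls were between -0.19 and -0.10 on the log2(FPKM + 1) scale. They were ZNF404 (-0.19), ZNF626 (-0.18), ZNF83 (-0.14), ZNF567 (-0.12), ZNF613 (-0.11), ZNF181 (-0.11), ZNF226 (-0.11) and ZNF146 (-0.10), with limma adjusted p from 0.0246 for ZNF567 to 0.0471 for ZNF146. ZNF226 was outside the naming rule and was named after its values were seen. ZNF83, with 11.7 FPKM in controls and 10.6 after SUPT4H1 siRNA, and ZNF146, with 18.6 and 17.2 FPKM, were the most abundant. ZNF146, which encodes a short protein made almost entirely of zinc fingers, has a locus that overlaps ZNF565, and whether strand was used to assign reads of overlapping genes is not given in the sources used here. In ZNF404, ZNF626 and ZNF146 the samples of line 1 overlapped between the siRNAs. Each of these 8 calls was lost without at least 4 of the 8 samples left out in turn, with limma adjusted p up to 0.133 for ZNF146.

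ZNF274 had the largest rise. It encodes a KRAB and SCAN domain protein known to bring SETDB1 to the 3′ ends of other zinc finger genes, and lies at chr19:58694356-58724928. In line 1 the controls were at 2.47 and 2.62 FPKM and the SUPT4H1 siRNA samples at 3.28 and 3.16 FPKM. In line 2 the controls were at 2.60 and 2.77 FPKM and the SUPT4H1 siRNA samples at 3.37 and 3.46 FPKM. The 4 SUPT4H1 siRNA samples lay above all 4 controls, and the level was 126.5% of control in line 1 and 127.2% in line 2. The log2 change was 0.26 on the log2(FPKM + 1) scale (SE 0.035, limma adjusted p = 4.93e-04), and 0.333 with a pseudocount of 0.1.

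ZNF524, a gene of 2775 bases at chr19:56111730-56114504 whose protein can bind telomeric repeats, was at 10.6, 11.2, 10.2 and 9.81 FPKM in controls and at 13.5, 14.1, 11.7 and 10.9 after SUPT4H1 siRNA. Its groups were apart in each line, with a log2 change of 0.24 (limma adjusted p = 0.00191). ZNF561 (chr19:9718002-9731916) was at 6.08, 5.95, 5.82 and 5.94 FPKM in controls and at 6.61, 6.48, 7.05 and 7.31 after SUPT4H1 siRNA, apart in both lines, with a log2 change of 0.18 (limma adjusted p = 0.00417). ZNF542P, labelled a pseudogene by its symbol, was at 5.17, 5.64, 4.06 and 4.34 FPKM in controls and at 5.88, 5.86, 5.12 and 5.26 after SUPT4H1 siRNA (log2 change 0.18, limma adjusted p = 0.00937). ZNF440, ZNF772 and ZNF526 complete the 7 rises, with log2 changes of 0.18, 0.12 and 0.10. The calls of ZNF440, ZNF772 and ZNF526 were lost without 3, 6 and 8 of the 8 samples left out in turn, with limma adjusted p up to 0.0529, 0.127 and 0.127.

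**Figure D2:**
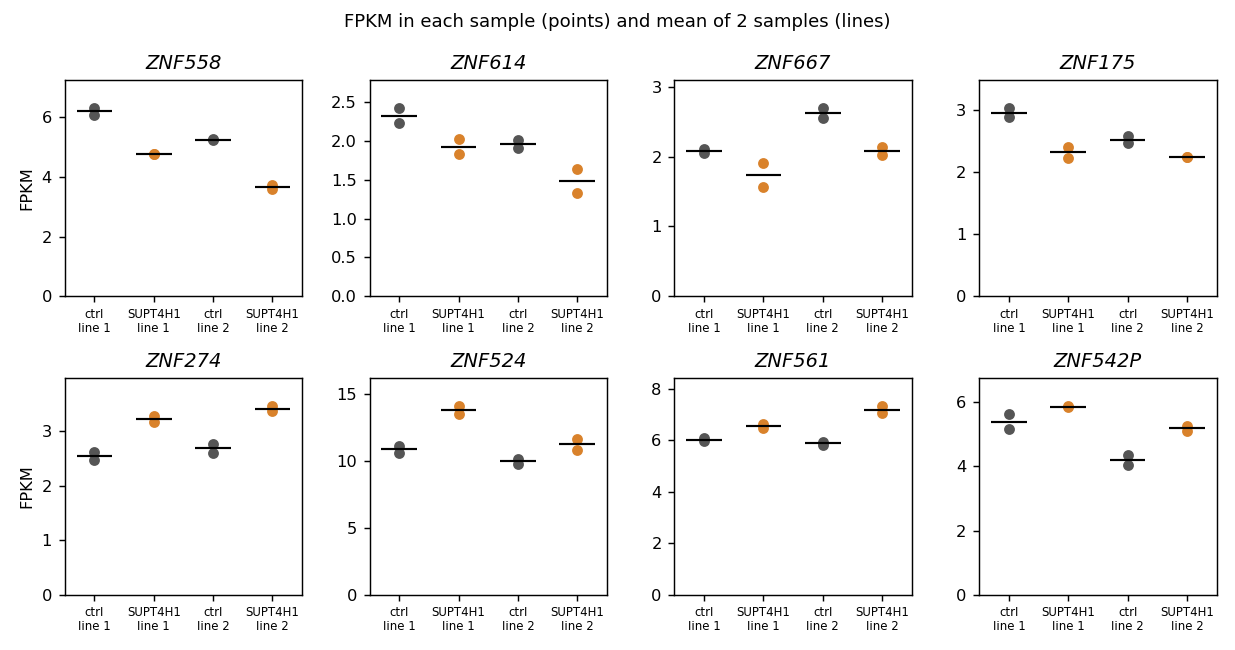
FPKM of 8 changed members in each sample (points) with the mean of the 2 samples of a group (lines), controls in grey and SUPT4H1 siRNA in orange, by line. The SUPT4H1 siRNA samples of ZNF558 lie at 3.59 to 4.78 FPKM, below all controls, and those of ZNF274 at 3.16 to 3.46 FPKM, above all controls.

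Of the 19 changed members, 16 had both SUPT4H1 siRNA samples on the same side of both controls in each line. The calls came from these same samples with the line as block, so this order describes the calls and is no separate support for them. Over all members, 13 were so ordered upwards (7.69%, beside 28.8% of all genes tested) and 21 downwards (12.4%, beside 16.5%). Another 11 were apart in both lines but in opposite directions, a count not made over all genes. The 8 described sample by sample above, ZNF558, ZNF614, ZNF667, ZNF175, ZNF274, ZNF524, ZNF561 and ZNF542P, kept their calls without any 1 of the 8 samples. The fit without the line as block, which is how the series design groups the samples, called 1 rise, ZNF274 (limma adjusted p = 0.022), and 0 falls, beside 3.56% and 1.76% of all genes. After scaling the samples by median ratios, 5 members rose and 19 fell, beside 20.2% and 20.2% of all genes, so rises were 20.8% of the members' calls against 36.8% without scaling, and 50.1% of the calls of all genes against 63.9%. The scaling moved the median of all genes from 0.031 to 0.001 and that of the members from -0.016 to -0.042. All 12 falls and 5 of the 7 rises were among the calls after scaling.

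Of the members named for a known role whatever their values, ZNF274 and ZNF146 changed, as given above, and the other 7 did not pass. ZNF91 was at 2.13, 2.20, 2.29 and 2.04 FPKM in controls and 1.99, 1.99, 1.99 and 1.93 after SUPT4H1 siRNA, below all controls, but with a log2 difference of -0.087 it missed the threshold (limma adjusted p = 0.102). ZNF331, an imprinted gene, was at 3.39 and 3.34 FPKM on average (limma adjusted p = 0.774). ZNF224, a repressor of aldolase A, was at 4.58 and 4.89 FPKM (0.113), and ZNF420, a regulator of p53 also called APAK, at 1.89 and 1.75 FPKM (0.232). ZNF675, an inhibitor of TRAF6 signalling, was at 1.40 and 1.34 FPKM (0.735), ZNF649, a repressor of serum response genes, at 1.58 and 1.55 FPKM (0.729), and ZNF382, a KRAB repressor, at 1.13 and 0.931 FPKM (0.118). The 3 most abundant members, ZNF358, ZNF580 and ZNF428, had log2 differences of -0.035, -0.019 and -0.038 and did not pass. For ZNF358 this value averages opposite directions in the 2 lines. Its SUPT4H1 siRNA samples lay above both controls in line 1 (104% of control). They lay below both in line 2 (91.4%, limma adjusted p = 0.0312 within that line). The difference between the lines did not pass for ZNF358 (limma adjusted p = 0.0817).

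The 2 lines were then taken apart. In line 1, 3 members rose and 4 fell (beside 18.9% and 11.6% of all genes), with a median change of 0.002 against 0.027 over all genes. In line 2, 5 rose and 11 fell (beside 26.9% and 15.9%), with a median of -0.027 against 0.037. Of the 169, 110 had the same sign in both lines, a share that was not computed over all genes. The difference of the response between the lines passed for 0 members (limma, smallest adjusted p = 0.0581), beside 9.82% of all genes; 17 had an unadjusted p under 0.05, beside 24.2% of all genes. The smallest adjusted p belonged to ZNF302, at 10.5 and 10.4 FPKM in controls of line 1 and 11.5 and 11.5 after SUPT4H1 siRNA, against 9.29 and 8.87 and then 8.25 and 8.85 FPKM in line 2. ZNF302 was named after its values were seen.

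**Figure D3:**
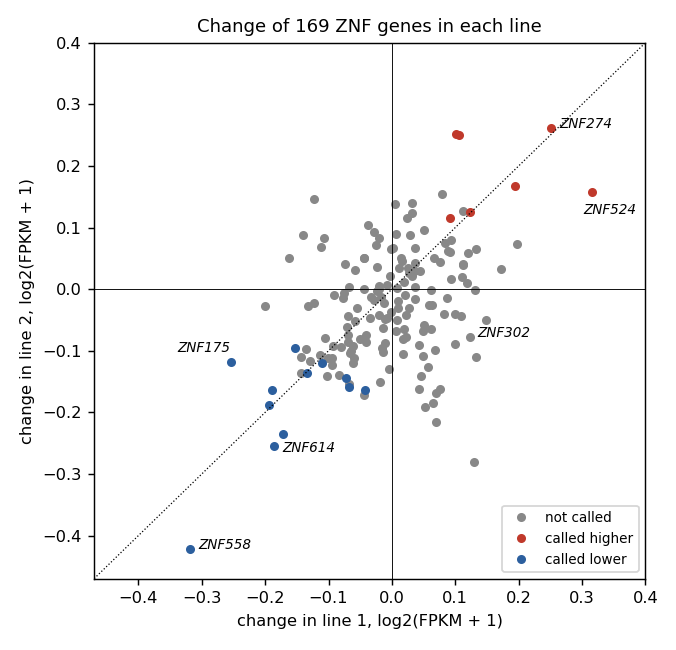
Change after SUPT4H1 siRNA of the 169 members on the log2(FPKM + 1) scale in line 1 (horizontal) and line 2 (vertical); red and blue points were called higher and lower over both lines, and the dotted line marks equal change. ZNF558 at -0.32 and -0.42 and ZNF274 at 0.25 and 0.26 lie near the line of equal change, and most members not called lie around 0.

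The members also differed between the lines, in a comparison that uses the same control samples. In control samples, 66 of the 169 differed between the lines (39.1%, beside 57.9% of all genes). Of the 169, 14 were higher and 52 lower in line 2, beside 2770 (24.2%) and 3854 (33.7%) of all 11435 genes. The values were not scaled by median ratios. The factors of that scaling were 0.961 and 0.985 for controls of line 2, against 1.003 and 1.006 for line 1. Their part in the lower values of line 2 was not tested. The median absolute difference between the lines was 0.125 on the log2(FPKM + 1) scale, beside 0.052 between the siRNAs. The first rests on 2 against 2 samples and the second on 4 against 4, so noise adds more to the first. ZNF226 was at 6.22 and 6.36 FPKM in controls of line 1 and 10.9 and 10.5 in line 2, a log2 difference of 0.68 (limma adjusted p = 5.85e-07). ZNF880 was at 1.09 and 1.25 against 2.36 and 2.49 FPKM (0.66, limma adjusted p = 3.06e-05), and ZNF497 at 2.39 and 2.40 against 1.503 and 1.188 FPKM (-0.54, limma adjusted p = 2.16e-04). ZNF880 and ZNF497 were named after their values were seen. ZNF880 and ZNF497 did not pass between the siRNAs (limma adjusted p = 0.42 and 0.905).

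Along the chromosome, neighbouring ZNF loci of the tables, whatever their level, were split into clusters where they lay more than 1 Mb apart. This gave 16 clusters, 7 of which held at least 5 members and together 157 of the 169. Numbered from the short arm's end, these are cluster 2 (chr19:7069471-9879410), cluster 3 (chr19:11594242-12740676), cluster 5 (chr19:19779663-24312769), cluster 9 (chr19:36672962-38270230), cluster 12 (chr19:44037340-45579688), cluster 15 (chr19:52074531-54083523) and cluster 16 (chr19:55987699-58992597), all in hg19. The share of a cluster's ZNF genes that reached the level limit differed: 50 of 60 in cluster 16 and 19 of 24 in cluster 12, against 16 of 36 in cluster 5 and 12 of 27 in cluster 3. The median level of the members was 4.27 FPKM in cluster 2, 2.31 in cluster 16 and 1.59 in cluster 5.

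The cluster medians of the change after SUPT4H1 siRNA lay between -0.072 and 0.005 on the log2(FPKM + 1) scale. Cluster 5, on the short arm beside the centromere and rich in ZNF genes of recent primate duplications such as ZNF91, ZNF43 and ZNF85, had the lowest median. In cluster 5, 14 of 16 members were below 0, 0 rose, and ZNF626 alone fell. ZNF431 and ZNF708 were its members above 0. Its median was -0.067 in line 1 and -0.084 in line 2, and -0.084 to -0.055 with any 1 sample left out. Cluster 9 had a median of -0.049 with 14 of 19 below 0 and falls of ZNF567 and ZNF146. Its median was -0.014 in line 1 and -0.087 in line 2, and -0.076 to -0.033 with any 1 sample left out, the lowest without SUPT4H1 siRNA replicate 2 of line 1. The 7 other genes inside cluster 9 had a median of -0.059. Cluster 2 had a median of -0.049 with 8 of 11 below 0, and held both the largest fall, ZNF558, and a rise, ZNF561. Its median was -0.082 without SUPT4H1 siRNA replicate 1 of line 2 and -0.021 without control replicate 2 of line 2, the lowest and the highest with any 1 sample left out. The 26 other genes inside cluster 2 had a median of 0.054.

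Clusters 12, 15 and 16, towards the long arm's end, and cluster 3, on the short arm, were centred near 0. Cluster 12 had a median of 0.004 with 10 above and 9 below 0, and ZNF404 and ZNF226 fell. Cluster 15 had a median of 0.002 with 15 above and 15 below 0. Of its 30 members 4 fell, ZNF175, ZNF613, ZNF614 and ZNF83, with 0 rises. Cluster 16 had a median of 0.005 with 26 above and 24 below 0. It held 50 of the 169 members and 4 of the 7 rises, ZNF274, ZNF524, ZNF542P and ZNF772, beside the fall of ZNF667. Of all genes tested, 26.8% rose and 15.2% fell, and neither cluster exceeded these shares. Cluster 3 had a median of -0.01 and 1 rise, ZNF440. With any 1 sample left out the medians were -0.012 to 0.031 in cluster 12, -0.013 to 0.009 in cluster 15 and -0.001 to 0.011 in cluster 16, so their signs are not fixed. Of the 12 members outside these 7 clusters, ZNF526 rose and ZNF181 fell. After median-ratio scaling all 7 medians were below 0, from -0.093 in cluster 5 to -0.019 in cluster 12.

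**Figure D4:**
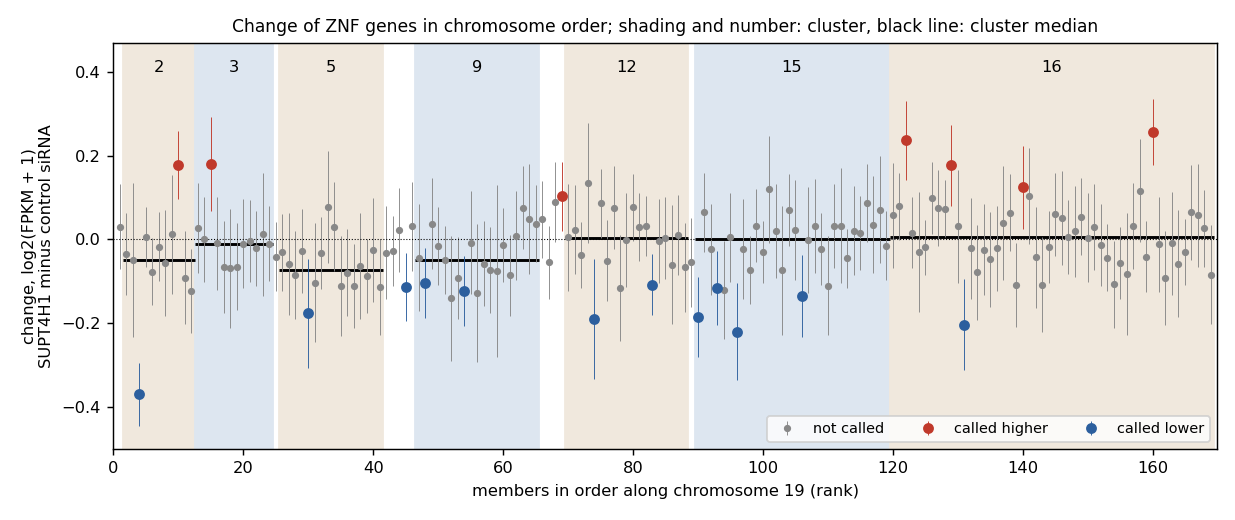
Change of each member after SUPT4H1 siRNA on the log2(FPKM + 1) scale, with its 95% interval, in order along chromosome 19; shaded bands are the 7 numbered clusters, black lines their medians, and red and blue points the members called higher and lower. The medians run from -0.072 in cluster 5 to 0.005 in cluster 16, and the changed members are scattered among members that were not called.

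Of 154 pairs of adjacent members within a cluster, 95 had changes of the same sign. The rank correlation of their changes was 0.16 across pairs, which share genes and libraries. In 0 pairs were both called in the same direction. With 7 rises and 12 falls among 169 members, scattered calls would also give few such pairs, so this count decides little about grouping of calls. The members' loci spanned 2 to 185.6 kb with a median of 19.7 kb, against 27.4 kb over all genes. Across the 169 members the rank correlation of span with change was -0.23, against -0.05 across all genes, as a description over genes of the same libraries. The 85 members of longer span had a median change of -0.024 and the 84 shorter ones -0.01, and the shorter ones included 5 of the 7 rises and 7 of the 12 falls. Span also differed between clusters, with medians of 36 kb in cluster 5 and 10.8 kb in cluster 16. Its part in the cluster medians was not tested.

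Genes that act with KRAB zinc finger proteins or in the silent chromatin they set up were taken from a list of 48, of which 44 were tested. Of these 44, 10 rose and 4 fell (31.8% called, beside 42.0% of all genes). Their median was 0.041 with 33 of 44 above 0, beside a median of 0.031 and 59.8% above 0 over all genes. By direction, 22.7% rose, beside 26.8% of all genes, and 9.09% fell, beside 15.2%, so neither share exceeded the background. Whether these calls held with 1 sample left out or after scaling is not given here. TRIM28, the corepressor itself, was at 53.1, 52.7, 47.9 and 50 FPKM in controls and at 56.1, 54.5, 53.8 and 53.7 after SUPT4H1 siRNA, above all controls (log2 change 0.098, limma adjusted p = 0.0154). SETDB1 was at 5.06 and 5.22 FPKM on average and did not pass (limma adjusted p = 0.524). The 9 other rises were HDAC2, MBD3, MTA2, EHMT1, EHMT2, DNMT1, UHRF1, MPHOSPH8 and MORC2, which encode histone deacetylase complex subunits, histone and DNA methyltransferases and readers or silencers of heterochromatin. Other genes of these same classes did not pass, among them HDAC1, CHD4, RBBP4, RBBP7, KDM1A, SETDB2, DNMT3A, CBX1, CBX3 and CBX5. The falls were CHD3, a nucleosome remodeller that binds TRIM28 (-0.19, limma adjusted p = 0.00197), SENP7, a SUMO protease (-0.15, limma adjusted p = 0.00611), SUMO3 (-0.11, limma adjusted p = 0.0309) and TRIM27 (-0.086, limma adjusted p = 0.0435).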

How the data were processed

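Polyadenylated RNA of 8 samples of 2 fibroblast lines was sequenced. The authors deposited FPKM values, each with a lower and upper bound and a status, in 27032 rows per sample, on hg19 per the submitters' processing notes. How reads were aligned, quantified and annotated, and whether strand was used, is not given in the sources used here. FPKM are relative, and reads of near-identical ZNF paralogs can be split between genes. 1350 rows on haplotype or unplaced sequences and 2073 rows of micro, small nucleolar and Cajal body RNAs were left out, and rows of one symbol were summed. Deposited starts count from 0 and were raised by 1 base.

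Genes with status OK and mean FPKM of at least 1 were tested with limma 3.58.1 (R 4.3.3) on log2(FPKM + 1), with a variance trend, the line as block and Benjamini-Hochberg adjustment over 11435 genes. The difference between lines came from a fit of 4 group means. The fits were tested on simulated data with planted changes larger than the change of any member between the siRNAs. That test does not cover calls of the size reported here. The line pairs the siRNAs: deviations of samples of the same line correlated at 0.851 to 0.897. Members and lists were chosen with earlier results of these data known. Named were the 10 largest rises and falls called, the 3 most abundant members, 3 on each side of the level limit, members called in the interaction, the largest change per cluster, and 10 genes of known role. Python 3.11.15 and pandas 2.3.3 prepared the tables. Alternatives changed the block, pseudocount, filters, scaling, variance trend, weights, repeated symbols, cluster gap and samples left out.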

Additional observations from a re-analysis of the deposited data

Results flagged for a closer look

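In 4 of 60 groups of 4 samples examined (30 named members, control and SUPT4H1 siRNA), the highest or lowest sample stood apart from the other 3, where chance gives about 1 in 20 if the 4 samples are alike in kind. Each group here holds 2 samples of each line, so that rate is approximate. ZNF175 was at 2.41 FPKM in SUPT4H1 siRNA replicate 1 of line 1, against 2.23 to 2.25 in the others. ZNF626 was at 3.52 FPKM in SUPT4H1 siRNA replicate 2 of line 1, against 2.81 to 2.87, and its call was lost without 6 of the 8 samples left out in turn. ZNF83 was at 10.8 FPKM in control replicate 2 of line 1, against 11.96 to 12.16. ZNF91 was at 1.93 FPKM in SUPT4H1 siRNA replicate 2 of line 2, against 1.993 to 1.994 in the others.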

How the results depend on the processing

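With no replicate block 1 member rose and 0 fell (limma), in place of 7 and 12. That was 0.592% of the members, beside 5.32% of all genes. Blocking by line and replicate number gave 5 rises and 7 falls (7.1% called, beside 35.2% of all genes). The numbers did not pair the samples, with correlations of 0.256 in line 1 and -0.054 in line 2. With no filter, over 23218 genes, 7 members fell and 7.1% were called, beside 16.9% of all genes. With median-ratio scaling 19 members fell and 14.2% were called, beside 40.4% of all genes. That scaling moved the median over the members from -0.016 to -0.042. With a minimum of 5 FPKM, 19 members remained to be tested, with 3 rises, 3 falls and a median of 0.016. Of these members 31.6% were called, beside 49.9% of the 7470 genes tested, whose median was 0.038. Leaving out 1 sample called 34.6 to 39.9% of all genes, with medians of 0.025 to 0.036. Among the members it gave 4 to 7 rises, 5 to 10 falls and medians of -0.017 to -0.009. Falls numbered 7 without control replicate 1 of line 1, SUPT4H1 siRNA replicate 1 of line 1 or SUPT4H1 siRNA replicate 2 of line 2, 6 without control replicate 1 of line 2 and 5 without its replicate 2. Rises numbered 4 without replicate 2 of either siRNA in line 2. The span of cluster medians, 0.077, was 0.121 with a pseudocount of 0.1 and 0.103 with a gap of 0.5 Mb, and was not computed for the minimum of 5 FPKM. The difference between the lines was called in 1 member with that minimum (ZNF302), with scaling (ZNF358) and with no variance trend (ZNF675), and in 0 to 2 members with 1 sample left out: ZNF358 without control replicate 1 of line 2, ZNF414 and ZNF564 without SUPT4H1 siRNA replicate 1 of line 2, and ZNF302 and ZNF585A without its replicate 2. The cause was not tested. FPKM of 1 to 2 limit the precision of 82 members.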
